A study of Homo sapiens with 4 samples.

Results

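A set of 8 genes was followed on the arrays: the aldehyde dehydrogenases ALDH3A1, ALDH1A1, ALDH1A3, ALDH3A2, ALDH3B1, ALDH3B2 and ALDH2, and the transketolase gene TKT. They were listed by name as corneal crystallin-type enzymes and their relatives. Each was found on the array by a feature with a single gene symbol, and where a gene had several such features the brightest was taken. All 8 were found among 18417 genes. The study lowered KLF7, a zinc finger transcription factor, with an siRNA pool (siKLF7) in the HCE cell line and compared it with a scramble control siRNA pool. There were 2 siKLF7 arrays and 2 scramble control arrays. Per the labels, all cells were undifferentiated HCE cells grown in Occulife medium, plated at 100000 per well and collected 48 hours after transfection with 20 nM siRNA. The control pool was given to all control wells, and no untransfected sample was analysed here. Separate cultures are not stated for the arrays of a group. Every p therefore reflects spread among these 4 samples alone, part or all of which may be technical. In a comparison with a single control array, that spread is between the 2 siKLF7 arrays alone. It is then taken mostly from all genes together, not from the gene named.

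Aldehyde dehydrogenases oxidise aldehydes to carboxylic acids with NAD or NADP as cofactor. In the mammalian corneal epithelium a few soluble enzymes accumulate far beyond catalytic need. They are called corneal crystallins, by analogy with the lens, and are thought to help with transparency and ultraviolet protection. ALDH3A1 is the best known of them, ALDH1A1 takes a comparable place in the rabbit, and transketolase is abundant in the mouse cornea. In the mouse the related factor KLF4 is known to sustain corneal crystallin genes.

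The regions upstream of 3 of these genes are shown because the levels of these genes moved in different ways. ALDH1A1 and ALDH1A3 make the same product, and by the brighter ALDH1A3 feature they lay on opposite sides of the controls. A second, dimmer ALDH1A3 feature differed by only 0.11 on the log2 scale from either control. TKT is the one member that is no aldehyde dehydrogenase. RefSeq's promoter table (GRCh38.p14) matched 5 of the 8 genes, and ALDH3A1, ALDH3B2 and ALDH2 are not among them. Each sequence below is the 250 bases before the annotated start, 5′ to 3′ on the gene's strand. Capitals mark every match to the letters CACCC or GGGCG or their reverse complements, GGGTG or CGCCC. Factors of the Kruppel-like family are known to bind CACCC and GC-rich boxes.
ALDH1A1: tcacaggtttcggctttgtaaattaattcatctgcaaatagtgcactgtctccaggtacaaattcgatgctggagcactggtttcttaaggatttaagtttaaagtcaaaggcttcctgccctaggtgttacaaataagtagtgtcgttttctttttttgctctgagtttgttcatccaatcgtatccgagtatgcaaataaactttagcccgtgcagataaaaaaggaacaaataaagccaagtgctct
ALDH1A3: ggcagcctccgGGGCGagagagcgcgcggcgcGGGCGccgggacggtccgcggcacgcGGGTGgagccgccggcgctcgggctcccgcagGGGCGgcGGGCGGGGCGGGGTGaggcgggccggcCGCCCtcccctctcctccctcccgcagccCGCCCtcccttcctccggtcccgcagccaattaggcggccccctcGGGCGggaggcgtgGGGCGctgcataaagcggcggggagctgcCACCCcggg
TKT: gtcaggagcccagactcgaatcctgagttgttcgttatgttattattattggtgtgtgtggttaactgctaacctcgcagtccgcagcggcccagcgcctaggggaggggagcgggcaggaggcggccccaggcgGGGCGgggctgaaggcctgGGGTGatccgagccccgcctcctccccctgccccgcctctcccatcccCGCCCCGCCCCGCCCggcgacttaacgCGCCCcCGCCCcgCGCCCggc
The ALDH1A1 stretch lies at chr9:72953054-72953303 on the minus strand and held 0 matches to either motif, with a GC content of 38.4%. The ALDH1A3 stretch lies at chr15:100879581-100879830 on the plus strand and held 3 matches to CACCC and 9 to GGGCG, with a GC content of 82.4%. The TKT stretch lies at chr3:53256023-53256272 on the minus strand and held 1 match to CACCC and 7 to GGGCG, with a GC content of 70.4%. The stretches of the 2 retinaldehyde-oxidising genes thus differed more in base composition than either did from TKT's, and a GC-rich stretch holds GGGCG more readily. The RefSeq table gives 2 starts each for ALDH3A2, with 0 and 3 matches to CACCC and 1 and 7 to GGGCG, and for ALDH3B1, with 2 and 1 matches to CACCC and 0 and 4 to GGGCG. No base lay in matches to both motifs. Among all 35116 promoters of the table, 54.7% held CACCC and 54.8% held GGGCG in the same window, and the median GC content was 58%. The median was 1 match for each motif. Of all promoters, 13% held 5 or more matches to GGGCG and 1.03% held 5 or more to CACCC. A match is a description of letters and shows no binding.

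The targeted gene was lower on both siKLF7 arrays. KLF7 had signals of 1492 and 1122 on the siKLF7 arrays, against 4649 and 2911 on scramble control arrays 1 and 2. The groups did not overlap. Relative to scramble control replicate 2 it fell by 1.16 on the log2 scale (SE 0.13, limma adjusted p = 1.2e-09), to 44.8% of that control. Relative to replicate 1 it fell by 1.83 (SE 0.13, adjusted p = 5e-23). With 4 arrays its difference was -1.50 (SE 0.28, adjusted p = 0.64), which did not pass.

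The 2 control arrays were not alike. Across genes, log2 levels of scramble control replicate 1 had correlations of 0.934 to 0.938 with those of the remaining arrays, which had 0.990 to 0.994 among themselves. Between it and any other array 961 to 1044 genes were at least 2-fold apart, against 14 to 37 among the other 3. Markers of the corneal epithelium stood apart there too. KRT3, a keratin of the corneal epithelium, was listed at 1873 and 2461 on the siKLF7 arrays, at 0.00549 on scramble control replicate 1 and at 1440 on replicate 2. The summed signal of the 8 measured markers was 37272 and 39604 on the siKLF7 arrays, against 25671 and 34212 on control arrays 1 and 2. KRT5, a keratin of basal epithelial cells, ranged from 11828 to 13575 over the 4 arrays, and CDH1, the epithelial cadherin, from 3161 to 3939. Of 14 fibroblast and keratocyte markers, those named here were chosen after their values were seen. ACTA2 and LUM rose against scramble control replicate 1 (by 0.97 and 0.94 on the log2 scale), and POSTN, THY1 and COL3A1 fell (by 3.21, 2.67 and 0.42). Against replicate 2, POSTN and LUM rose by 0.86 and 0.64 (limma adjusted p = 0.0012 and 0.018) and 0 fell. The list median was -0.20 against replicate 1 and -0.12 against replicate 2. POSTN, a secreted matrix protein gene, had signals of 77.4 and 44.1 on the siKLF7 arrays, against 678 and 25.4 on control arrays 1 and 2. LUM, the gene of a corneal stroma proteoglycan, had signals of 63.5 and 62.4 on the siKLF7 arrays, against 25.1 and 34.6 on control arrays 1 and 2. The summed signal of that list was 3851 and 3718 on the siKLF7 arrays, against 4933 and 3363 on control arrays 1 and 2. The sums ranged from 1164 to 1480 for 6 vascular endothelium markers, from 1163 to 1409 for 3 corneal endothelium markers, from 1395 to 1891 for 5 leukocyte markers and from 171 to 186 for 3 melanocyte markers. No gene tested was at 0 on any array (lowest signals from 2.34e-05 to 2.74e-05), so a signal above 0 does not show that a marker was detected. The part of these differences in the results was not tested. Values of the 8 enzymes are therefore given against each control array as well as with all 4 arrays, and the counts of other enzymes and of corneal markers against each control array.

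In all, 3 comparisons were fitted with limma over all 18417 genes, on log2(signal + 16), and p-values were adjusted over all genes with a threshold of 0.05. With all 4 arrays limma called 0 genes (0%), and 0 of the 8 enzymes passed. An unadjusted p under 0.05 was found for 1069 of the 18417 genes, a share close to the 0.05 that would arise with no difference. Against scramble control replicate 2 alone, 0.885% of genes rose and 0.69% fell, and 1 of the 8 enzymes rose. Against scramble control replicate 1 alone, 13.4% rose and 13.4% fell, and of the 8 enzymes 5 rose and 1 fell. In the fits of 3 arrays a gene's own values gave 1 residual degree of freedom. The prior that limma took from all genes weighed as 74.2 degrees against replicate 2 and 86.2 against replicate 1. An SE or p there thus says little about the spread of the gene named. Both siKLF7 arrays serve in all of these fits, and in the fits of 3 arrays the lone control was assumed to vary like the siKLF7 pair. That pair was at least 2-fold apart for 14 genes, against 975 between the 2 controls. In bulk samples, fewer cells of a type and less RNA per cell cannot be told apart.

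The 8 enzymes had a median log2 difference of 0.53 with 4 arrays, 0.10 against scramble control replicate 2 and 0.91 against replicate 1. The medians of all genes were -0.05, -0.04 and -0.05 in the same order. Both siKLF7 arrays lay above both controls for 4 of the 8 enzymes, against 16.3% of all genes, and below both for 1, against 28.9%. Against scramble control replicate 2 alone, 5 lay above and 3 below, against 29.7% and 44.6% of all genes. For all 8 enzymes the 2 controls were further apart than the siKLF7 mean was from scramble control replicate 2, as was the case for 62.5% of all genes. With 2 arrays against 2, an exact two-sided permutation test of a single gene cannot give a p below 0.333.

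**Figure D1:**
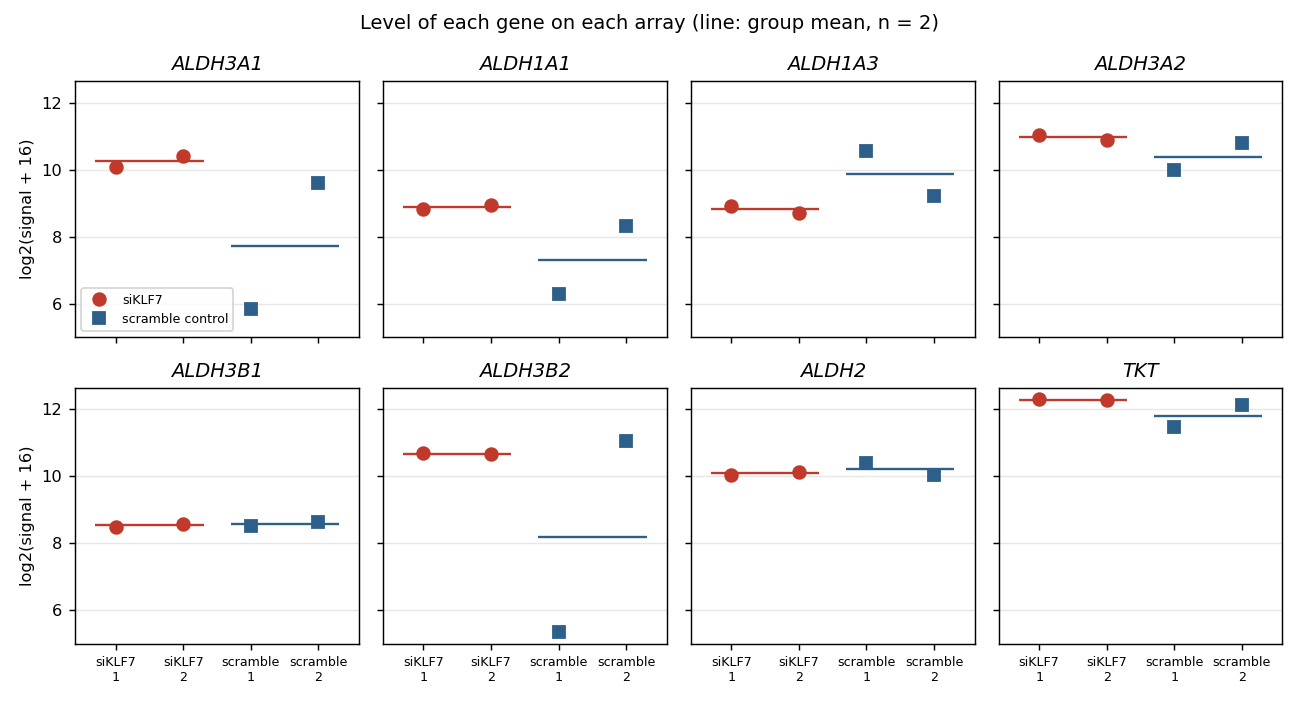
Level of each gene on each array as log2(signal + 16), with siKLF7 arrays as circles, scramble control arrays as squares and a line at each group mean (n = 2). The siKLF7 arrays lie close together in every panel, while the control arrays lie far apart for ALDH3B2, ALDH3A1 and ALDH1A1 (5.70, 3.78 and 2.04 between them) and close for ALDH3B1 (0.11).

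ALDH3A1, which oxidises medium-chain and aromatic aldehydes including products of lipid peroxidation, was higher on both siKLF7 arrays than on either control. Its signal (feature 8013384) was 1064 and 1358 on the siKLF7 arrays, against 40.8 and 763 on scramble control arrays 1 and 2. The mean log2 level was 10.25 ± 0.25 in siKLF7 arrays and 7.72 ± 2.67 in control arrays (SD, n = 2 each). The groups did not overlap, and the control SD spans a low first control and a second one closer to the siKLF7 arrays. Relative to scramble control replicate 2, ALDH3A1 rose 1.57-fold (log2 0.65, SE 0.15, 95% interval 0.35 to 0.94, limma adjusted p = 0.006). It was the one member of the 8 that passed there. The siKLF7 arrays differed from each other by 0.35 on the same scale. Without the intensity trend in limma's prior the adjusted p was 0.058, the one alternative of 8 that ended the call, and over all of them it ranged from 0.00011 to 0.058. Relative to scramble control replicate 1 it rose by 4.42 (SE 0.17, adjusted p = 3.7e-41), and with 4 arrays the difference was 2.53 (SE 1.25, adjusted p = 0.64).

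ALDH1A1 and ALDH1A3 are cytosolic enzymes that convert retinaldehyde to retinoic acid. By the brighter ALDH1A3 feature they differed in opposite directions. ALDH1A1 (feature 8161755) had signals of 436 and 479 on the siKLF7 arrays, against 61.5 and 303 on control arrays 1 and 2. The siKLF7 arrays lay above both controls, and the first control was again low. The log2 difference from scramble control replicate 2 was 0.57 (SE 0.16, 95% interval 0.24 to 0.89), with a limma adjusted p of 0.051 that just missed the threshold. It passed with quantile normalization (0.011), with median centring (0.011) and without the dimmest 25% of genes (0.028), and over 7 alternatives the adjusted p ranged from 0.011 to 0.083. Relative to scramble control replicate 1 it rose by 2.61 (SE 0.16, adjusted p = 7.3e-26), and with 4 arrays the difference was 1.59 (SE 0.68, adjusted p = 0.64).

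The brighter ALDH1A3 feature (7986446) had signals of 473 and 406 on the siKLF7 arrays, against 1492 and 578 on control arrays 1 and 2. It was the one member of the 8 with both siKLF7 arrays below both controls, and the one more than 2-fold brighter on the first control than on the second. The log2 difference from scramble control replicate 2 was -0.39 (SE 0.16, limma adjusted p = 0.31), which did not pass. It fell by 1.73 (SE 0.16, adjusted p = 2.9e-16) relative to scramble control replicate 1, and with 4 arrays the difference was -1.06 (SE 0.46, adjusted p = 0.64). A second ALDH1A3 feature (7986444) gave 107 and 123 on the siKLF7 arrays and 105 on each control, so the features disagree. That feature differed by 0.11 from either control.

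The ALDH3 relatives showed the widest range. ALDH3A2, the fatty aldehyde dehydrogenase of the endoplasmic reticulum, is next but one to ALDH3A1 in the RefSeq annotation, with 1 protein-coding gene, SLC47A2, between them. Its signal (feature 8005638) was 2071 and 1896 on the siKLF7 arrays, against 992 and 1772 on control arrays 1 and 2. The groups did not overlap, but the second control was close to the siKLF7 arrays. The log2 difference was 0.16 (SE 0.12, limma adjusted p = 0.65) against scramble control replicate 2, and it rose by 0.99 (SE 0.13, adjusted p = 1e-09) against replicate 1. With 4 arrays the difference was 0.57 (SE 0.30, adjusted p = 0.64).

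ALDH3B2 had the largest gap between controls of the 8. Its signal (feature 7949882) was 1643 and 1590 on the siKLF7 arrays, against 24.9 and 2103 on control arrays 1 and 2. The siKLF7 arrays lay between the controls, so the sign depended on the control. The log2 difference was -0.38 (SE 0.13, 95% interval before adjustment -0.63 to -0.12, limma adjusted p = 0.14) against scramble control replicate 2, and did not pass. Against replicate 1, whose signal was near the pseudocount of 16, it rose by 5.32 (SE 0.16, adjusted p = 6.8e-48). With 4 arrays it was 2.47 (SE 1.88, adjusted p = 0.65).

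ALDH3B1, a relative of ALDH3B2 that oxidises lipid-derived aldehydes, was nearly level. The RefSeq annotation places 2 protein-coding genes between these relatives. The ALDH3B1 signal (feature 7941961) was 341 and 370 on the siKLF7 arrays, against 353 and 382 on control arrays 1 and 2. The groups overlapped. The log2 difference was -0.10 (SE 0.16, 95% interval -0.42 to 0.23, limma adjusted p = 0.84) against scramble control replicate 2 and 0.01 (95% interval -0.32 to 0.33, adjusted p = 0.98) against replicate 1. With 4 arrays it was -0.05 (SE 0.13, adjusted p = 0.89).

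ALDH2, the mitochondrial enzyme that clears acetaldehyde, was the other member with overlapping groups and a narrow range. Its signal (feature 7958784) was 1046 and 1106 on the siKLF7 arrays, against 1328 and 1026 on control arrays 1 and 2. The log2 difference was 0.07 (SE 0.15, 95% interval -0.22 to 0.36, limma adjusted p = 0.89) against scramble control replicate 2. It was -0.30 (95% interval -0.58 to -0.02, adjusted p = 0.11) against replicate 1 and -0.12 (SE 0.18, adjusted p = 0.79) with 4 arrays. None of these passed, and the sign depended on the control.

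TKT links glycolysis and the pentose phosphate pathway by moving 2-carbon units between sugar phosphates. Its signal (feature 8088106) was 5029 and 4927 on the siKLF7 arrays, against 2803 and 4512 on control arrays 1 and 2. Both siKLF7 arrays lay above both controls, and the siKLF7 pair differed by only 0.03 on the log2 scale. The log2 difference was 0.14 (SE 0.09, 95% interval -0.03 to 0.31) against scramble control replicate 2, and did not pass. TKT rose by 0.83 (SE 0.09, adjusted p = 9.4e-13) against replicate 1, and with 4 arrays the difference was 0.48 (SE 0.24, adjusted p = 0.64).

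**Figure D2:**
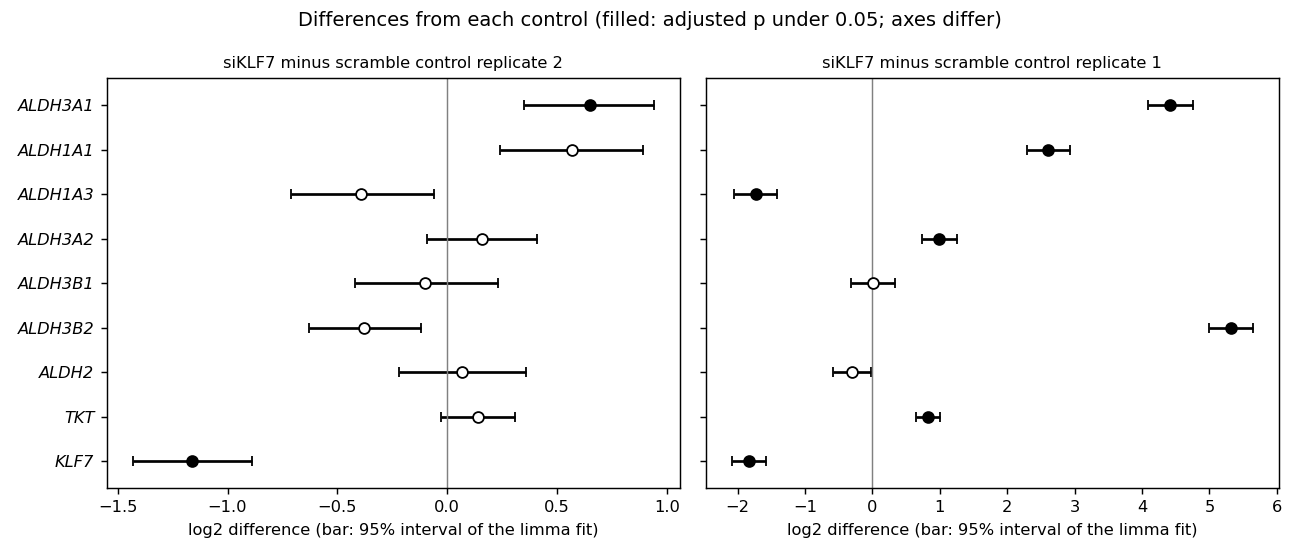
Log2 difference of siKLF7 from scramble control replicate 2 (left) and from scramble control replicate 1 (right), with 95% intervals of the limma fits of 3 arrays. Filled points have an adjusted p under 0.05, and the horizontal axes differ in scale. On the left ALDH3A1 (0.65) and KLF7 (-1.16) are filled, and on the right all but ALDH3B1 and ALDH2 are.

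The members also differed in how they stood on the first control. Set against the mean of the other 3 arrays, 3 of the 8 were at least 2-fold lower there (ALDH3B2, ALDH3A1 and ALDH1A1) and 1 was at least 2-fold higher (ALDH1A3). Among all 18417 genes, the same was true of 551 in the low direction and of 389 in the high direction. Of the 3 low genes, ALDH3A1 and ALDH1A1 stood above scramble control replicate 2 on both siKLF7 arrays, while ALDH3B2 stood below it.

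Likeness was measured as the Euclidean distance between log2 levels over the 4 arrays, each gene centred on its own mean. The 3 genes nearest to ALDH3A1 were RNVU1-19 (distance 0.33), EGLN3 (0.39) and CPA4 (0.41), and 7 genes lay within 0.5 of it. RNVU1-19 belongs to a family of small nuclear RNA copies that an array may not separate. EGLN3, a prolyl hydroxylase that acts on hypoxia-inducible factors, had signals of 1369 and 1275 on the siKLF7 arrays, against 48.3 and 1014 on control arrays 1 and 2. CPA4, a carboxypeptidase, had 3422 and 3224 on the siKLF7 arrays, against 152 and 2681 on control arrays 1 and 2. Of the other members ALDH3B2 (1.39) and ALDH1A1 (1.56) were nearest to ALDH3A1, and ALDH1A3 was farthest (5.12). For TKT the nearest genes were SNORD114-26 (0.01), HSD17B8 (0.03) and IPPK (0.04), but 3091 genes lay within 0.5 of it. ALDH3A2 was the nearest member to TKT (0.15). With so few arrays, 1 array that stands apart weighs heavily in such a distance.

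Some corneal epithelium markers were, like ALDH3A1 and ALDH1A1, low on the first control and highest on the siKLF7 arrays. KRT12, the keratin partner of KRT3, had signals of 2434 and 3136 on the siKLF7 arrays, against 67.7 and 1570 on control arrays 1 and 2. Against scramble control replicate 2, 3 of 8 markers rose and 0 fell. KRT12 rose by 0.81 (SE 0.12), KRT3 by 0.57 (SE 0.13), and CLU, the gene of the secreted chaperone clusterin, by 0.53 (SE 0.14), with limma adjusted p-values of 3.2e-06, 0.0048 and 0.03. The marker median was 0.18, against -0.04 for all genes. EPCAM was low on the first control but not highest on the siKLF7 arrays. Its signals were 278 and 247 on the siKLF7 arrays, against 95.1 and 267 on control arrays 1 and 2. Against replicate 2, EPCAM stood at -0.03, CDH1 at -0.02 and KRT5 at 0.07. PAX6, the eye-field transcription factor, stood at 0.27 (SE 0.11) and KRT14 at 0.09 (SE 0.06), and neither passed. Against replicate 1, 7 rose, among them KRT3 by 7.08, KRT12 by 5.05 and CLU by 4.36, and CDH1 fell by 0.29. The size for KRT3 there rests on the pseudocount, since its signal on that array was far below 16. The replicate 1 median was 1.15, against -0.05 for all genes. For these counts and those of the lists below, the shares of all genes called against each control are given above. With 4 arrays the differences were 3.82 for KRT3, 2.93 for KRT12 and 2.44 for CLU, each with an adjusted p of 0.64.

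**Figure D3:**
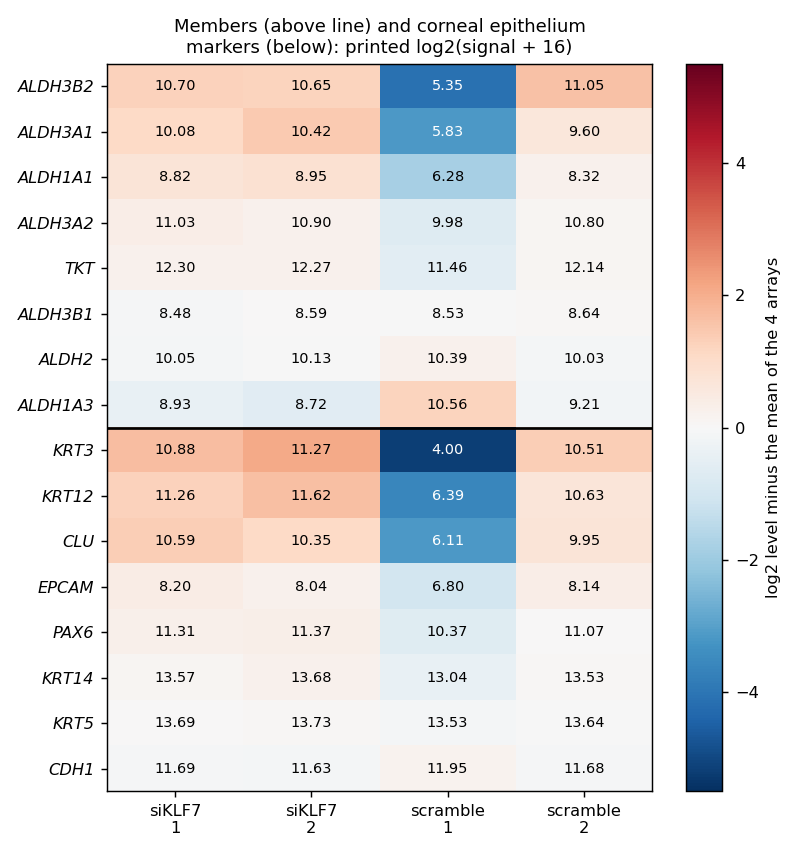
Log2(signal + 16) printed for each gene and array, with colour for the level minus the gene's mean over the 4 arrays. The 8 enzymes are above the line and 8 corneal epithelium markers below it. The first control array is dark blue for ALDH3B2 (5.35), ALDH3A1 (5.83), KRT3, KRT12 (6.39) and CLU (6.11), and pale for ALDH3B1, ALDH2, KRT5 and CDH1.

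The medians of the other enzyme lists of these families and pathways lay from -0.06 to 0.09 against scramble control replicate 2, with -0.04 for all genes. They lay from 0.05 to 0.48 against replicate 1, with -0.05 for all genes. With 4 arrays 0 genes of any of these lists passed. Of the 12 other aldehyde dehydrogenases, 1 rose and 0 fell against scramble control replicate 2, with a median log2 difference of 0.03. The gene that rose was ALDH7A1, the lysine-pathway enzyme that oxidises alpha-aminoadipic semialdehyde. It had signals of 1526 and 1555 on the siKLF7 arrays, against 1086 and 1060 on control arrays 1 and 2. The 2 controls were close here and both siKLF7 arrays lay above them. ALDH7A1 rose by 0.53 (SE 0.14, limma adjusted p = 0.018) against scramble control replicate 2 and by 0.50 (adjusted p = 0.0028) against replicate 1, and with 4 arrays the difference was 0.51 (adjusted p = 0.64). Against replicate 1, 3 rose and 1 fell. ALDH6A1, a mitochondrial enzyme of valine breakdown, rose by 0.38 there. ALDH1L2, a mitochondrial folate enzyme, rose by 1.05 there and stood at -0.26 against replicate 2. ALDH1B1, a mitochondrial relative of ALDH2, fell by 0.90 there and stood at 0.27 against replicate 2.

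In the pentose phosphate pathway, 0 of 10 other genes passed against scramble control replicate 2, and the median was -0.02. Against replicate 1, 1 rose and 1 fell, with a median of 0.07. TALDO1, the transaldolase that works beside transketolase, had signals of 2782 and 2709 on the siKLF7 arrays, against 1822 and 2899 on control arrays 1 and 2. Its log2 difference was -0.08 (SE 0.11, limma adjusted p = 0.81) against replicate 2, and it rose by 0.59 against replicate 1. TKTL1, a transketolase-like gene, was dim, at 68.8 and 71.6 on the siKLF7 arrays against 112 and 93.2 on control arrays 1 and 2. It stood at -0.34 (SE 0.16, adjusted p = 0.40) against replicate 2 and fell by 0.57 against replicate 1. PGLS, the lactonase of the oxidative branch, stood at -0.38 (SE 0.17, adjusted p = 0.35) against replicate 2.

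In the retinoid pathway, which supplies and uses the products of ALDH1A1 and ALDH1A3, 1 of 15 genes fell and 0 rose against scramble control replicate 2, with a median of -0.06. DHRS9, a short-chain dehydrogenase that makes retinaldehyde from retinol, had signals of 115 and 97.1 on the siKLF7 arrays, against 46.4 and 195 on control arrays 1 and 2. It fell by 0.79 (SE 0.16, limma adjusted p = 0.0009) against replicate 2, rose by 0.96 against replicate 1, and stood at 0.09 with 4 arrays. ADH7, an alcohol dehydrogenase of epithelia, had signals of 249 and 257 on the siKLF7 arrays, against 23.5 and 349 on control arrays 1 and 2. It stood at -0.44 (SE 0.16, adjusted p = 0.21) against replicate 2, rose by 2.77 (SE 0.16, adjusted p = 6.4e-28) against replicate 1, and stood at 1.16 (adjusted p = 0.68) with 4 arrays. The sign for ADH7, as for DHRS9, thus turned with the control. STRA6, the retinol uptake receptor, stood at -0.25 (SE 0.16) and RARG, a retinoic acid receptor, at -0.21 (SE 0.16), and neither passed there. Against replicate 1, 8 rose, 2 fell, the median was 0.48 and the highest difference was 4.61. The 2 that fell were STRA6, by 0.43, and RDH11, a retinal reductase, by 0.46.

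Of 13 other aldehyde-removing enzymes, 0 passed against scramble control replicate 2, and the median was 0.09. Against replicate 1, 5 rose and 1 fell, with a median of 0.18. AKR1B10, an aldo-keto reductase of reactive aldehydes, had signals of 829 and 730 on the siKLF7 arrays, against 29.0 and 796 on control arrays 1 and 2. Like ALDH3A1 it was low on the first control, and unlike ALDH3A1 it was level with the second (log2 difference -0.03, SE 0.15, limma adjusted p = 0.95). Against replicate 1 AKR1B10 rose by 4.14, the highest difference of the list there. AKR1C1 and AKR1C2, whose near-identical sequences an array may not separate, stood at -0.10 and -0.08 against replicate 2 and rose by 1.25 and 1.87 against replicate 1. GSTA4, a glutathione transferase for hydroxynonenal, stood at 0.33 (SE 0.15, adjusted p = 0.38) against replicate 2, with both siKLF7 arrays above both controls. It rose by 0.96 (adjusted p = 4.2e-07) against replicate 1 and stood at 0.65 (adjusted p = 0.64) with 4 arrays. Of 11 other genes known as enzyme crystallins in some species or as abundant soluble enzymes, 0 passed against replicate 2, with a median of 0.06. Against replicate 1, 4 rose and 1 fell, with a median of 0.05. CRYZ, the zeta-crystallin of the guinea pig lens, had signals of 875 and 776 on the siKLF7 arrays, against 1938 and 638 on control arrays 1 and 2, and stood at 0.36 (SE 0.16, adjusted p = 0.33) against replicate 2. It fell by 1.22 (SE 0.14, adjusted p = 2.1e-11) against replicate 1 and stood at -0.43 (adjusted p = 0.75) with 4 arrays, so its sign turned with the control. LDHB stood at 0.13 (SE 0.09) and CRYL1 at 0.22 (SE 0.16) against replicate 2, where neither passed, and they rose by 0.25 and 0.77 against replicate 1.

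**Figure D4:**
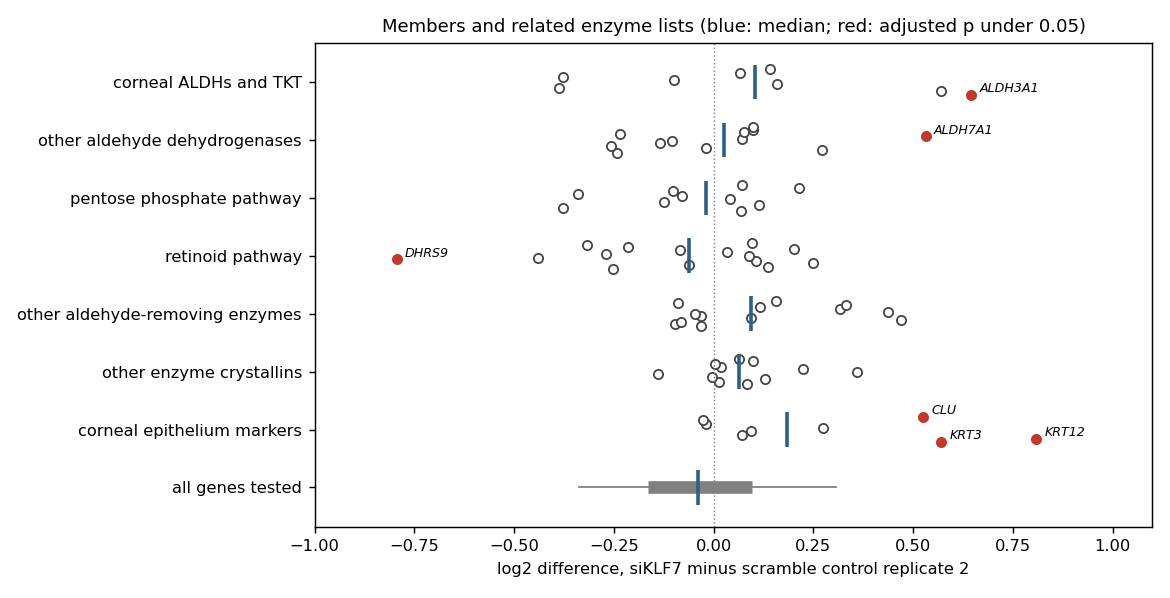
Log2 difference of siKLF7 from scramble control replicate 2 for each gene of 7 lists, with medians in blue and genes with an adjusted p under 0.05 in red. The bottom row shows all genes tested, with a thin line from the 5th to the 95th percentile and a thick bar from the 25th to the 75th. ALDH3A1 (0.65), ALDH7A1 (0.53) and 3 corneal markers lie to the right, DHRS9 (-0.79) to the left, and most other genes near 0.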

How the data were processed

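Total RNA was measured on 4 whole-transcript arrays, 2 siKLF7 and 2 scramble control, grouped by the sample labels. The deposited intensity values are linear. The submitters' processing notes name the programs PLIER 2.0 and Affymetrix Expression Console 1.1.1. Any normalization between arrays is not given in the sources read, and no detection calls were used. The median deposited signal was 185 to 194 per array. Of 33297 features, 19460 had 1 platform symbol, and the feature with the highest mean log2 level was kept for each of 18417 genes.

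Signals were turned into log2(signal + 16), with no normalization or filter added. Models were fitted in limma 3.58.1 (R 4.3.3) by lmFit, and eBayes used an intensity trend. Benjamini-Hochberg adjustment was over all genes. The fits were also run on simulated data with the same noise in both groups. Those runs cannot show whether a lone control varies like the siKLF7 pair. The number of arrays limits the precision, and the pseudocount shrinks changes of dim genes. Alternatives were quantile normalization, median centring, a pseudocount of 1 or 32, leaving out the dimmest 25% or 50% of genes, no intensity trend, averaging the features of a gene, a block for the replicate number, and each array left out in turn.

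The members, lists and tests were chosen with earlier results of these data known. Named were KLF7, the 8 members, the corneal epithelium markers and the 3 genes nearest to ALDH3A1 and to TKT. From each other list the rule took up to 6 genes called in any fit, filled to at least 3 by the smallest p against scramble control replicate 2, of which the text gives a part. Figures were drawn with matplotlib 3.10.9. Some genes written in the lists are not reported here.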

Additional observations from a re-analysis of the deposited data

How the results depend on the processing

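With 4 arrays, leaving out 1 array at a time gave 0 to 4935 called genes, 0 to 5 of the 8 enzymes called higher and 0 to 1 called lower. The counts were 290, 1 and 0 without scramble control replicate 1, and 4935, 5 and 1 without scramble control replicate 2. Over the same settings the log2 difference ranged from -0.3765 to 5.3199 for ALDH3B2 and from -0.2999 to 0.0669 for ALDH2, with the sign turned without scramble control replicate 1. For ALDH3B1 it ranged from -0.1023 to 0.0111, with the sign turned without siKLF7 replicate 1 or scramble control replicate 2. Against scramble control replicate 2, 290 genes were called, with 478 under quantile normalization and 172 without the intensity trend. The cause of this spread in counts was not tested. ALDH1A1 stood at 0.59 with quantile normalization, 0.60 with median centring and 0.57 without the dimmest 25% of genes. Its side of the threshold changed in these settings, and that of ALDH3A1 (0.65) changed without the trend. Against scramble control replicate 1, ALDH3B1 stood at -0.033 with quantile normalization and -0.019 with median centring. ALDH2 stood at -0.33 with median centring, where its side of the threshold changed. The median of all genes in that setting was -0.08. ALDH1A1 was not tested without the dimmest 50% of genes, which leaves it out. For the 8 enzymes and KLF7 together, direction and side of the threshold were kept in 67 of 71 tests of an alternative against scramble control replicate 2, and in 68 of 71 against replicate 1. The changes were all in ALDH1A1 and ALDH3A1 against replicate 2, and in ALDH3B1 and ALDH2 against replicate 1. These tests reuse the same arrays, and many concern genes far from the threshold. The replicate number was shared by the groups, but nothing in the labels pairs the samples, and the differences between replicates 1 and 2 correlated at -0.041 between the groups across genes. With the replicate block and 4 arrays, 0 genes were called, and ALDH3A1 stood at 2.53 (SE 0.88, limma adjusted p = 0.735). With no detection calls, low signals such as ALDH3B2 on scramble control replicate 1 cannot be told from background.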
